A study of Danio rerio with 4 samples.

Results

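Genes that move, store, build and break down lipids were examined in whole zebrafish larvae at 4 dpf. Members were chosen by gene symbol, with earlier results of these data known. They were the apolipoproteins, the fatty acid binding proteins (fabp), and the enzymes that activate, elongate, desaturate and esterify fatty acids. Also taken were the perilipins that coat lipid droplets, the lipases, and low density lipoprotein receptors with adaptors and genes named for a receptor domain. The choice gave 82 of the 19143 genes with a row in the table, on 81 symbols, since *apoa4b.2* stands on 2 identifiers. The RNA came from 2 pools of larvae homozygous for the *nlrc3l* st73 mutation and from 2 pools of siblings that were heterozygous or wild type. For mutants as for siblings, the smaller pool had 10 larvae and the larger had 12. No treatment is given beyond the staining used for sorting. By the paper's method, that bath also held PTU, an inhibitor of pigmentation. The larvae came from crosses of heterozygous carriers, and the pools had been sorted with neutral red, a dye taken up by microglia, so that mutants lacked microglia and siblings had them. The siblings are therefore a mixture of genotypes, and microglia were part of how the pools were made.

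Lipids travel between tissues in lipoprotein particles. Apolipoproteins form the protein part of these particles, lipases release fatty acids from them, receptors take up what remains, and small binding proteins carry fatty acids inside cells. In larval zebrafish the yolk is the first source of lipid, and the yolk syncytial layer, the liver and the intestine package it into particles.

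The value of each gene is the authors' mean normalized count, which is the number of sequenced fragments assigned to the gene after scaling for library depth, averaged over all 4 libraries. Mutant and sibling pools are combined in this mean, so the values below describe the larvae of both genotypes together. Values of single libraries and of each genotype were not analysed here, and the spread between pools enters no value. Library depth enters only through the scaling, and the depth of single libraries was not examined. Counts were not divided by gene length. A longer transcript gives more fragments, so a larger count is not by itself a higher level of transcript, and in whole larvae more cells of a type and more RNA per cell cannot be told apart. Over all genes the mean normalized counts added up to 8721330, with a median of 126, a lowest value of 9.18 and a highest of 143382. No gene with a lower value had a row, so medians, percentiles and shares refer to genes with a row. Lipid genes without a row would not be counted.

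Most tissues that a whole larva should hold were present by their markers, while the macrophage and yolk lists were mixed. Skeletal muscle markers ran from 16556 counts (*tnnt3b*) to 98792 counts (*actc1b*), and liver markers from 1620 (*cp*) to 8523 (*tfa*). Neuron markers (*elavl3*, *snap25a*), glia markers (*gfap*, *slc1a2b*) and lens markers (*cryaa*, *crybb1*) all lay above the median of all genes, as did those of intestine (*vil1*, *slc15a1b*, *anpepb*) and blood (*hbae1.1*, *hbbe1.1*). Of the 3 markers of exocrine pancreas 2 did so, *ela2* being at 72.0 counts. The macrophage genes *mpeg1.1* and *csf1ra* had 49.4 and 41.4 counts, and the yolk protein gene *vtg1* had 10.7, all below the median of all genes. *p2ry12*, on the macrophage list, and *vtg2*, on that of the yolk, had no row. *apoc1*, on the same marker list as the macrophage genes, and *mttp*, on that of the yolk, went the other way. They had 5500 and 432 counts, above the median of all genes. Both are lipid genes themselves and are given again with them.

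The 82 lipid genes took 1.93% of all normalized counts, and 0.875% when the 100 genes with the most counts were left out. Their median was 179 counts, against 126 over all genes. Among genes with at least 50 counts it was 369, against 204 over all genes kept. Of the 82, 53 genes, or 64.6%, lay above the median of 126. In the top 10% of all genes by count stood 20 of the 82, or 24.4%, and 4 were among the 100 genes with the most counts. The 4 were *apoa1b*, *apoa1a*, *apoa2* and *apobb.1*, at ranks 17, 20, 26 and 79. At the other end, 18 of the 82 had fewer than 50 counts, as did 5188 of all 19143 genes. The lowest lipid gene was *plin1* at 10.3, close to the lowest value of all genes, 9.18.

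**Figure D1:**
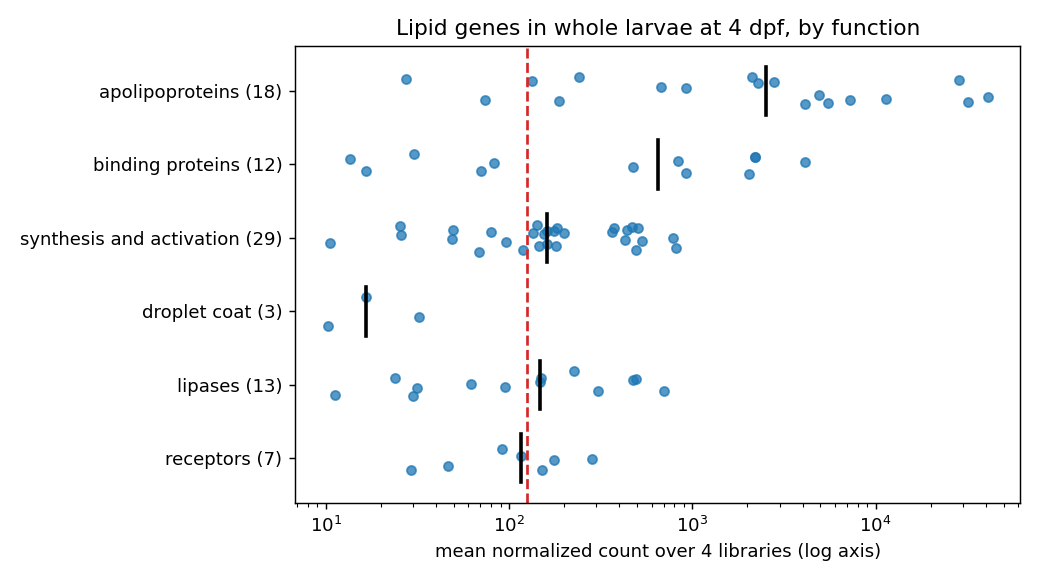
Mean normalized count of each of the 82 lipid genes (horizontal log axis), in rows by function with the number of genes in brackets. Each point is a gene, black bars are row medians and the dashed line is the median of all genes, 126 counts. Apolipoproteins reach 40816 counts, while the 3 perilipins lie at 32.5 counts or fewer.

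Apolipoproteins held 85.6% of the counts of the 82 genes, with 18 genes and a median of 2539 counts. Taken by symbol, the 18 include *apool*, *apoob* and *apooa*, described below, which held 0.334% of the counts of the lipid genes. The main proteins of high density lipoprotein led the group. *apoa1b* had 40816 counts and *apoa1a*, its paralog, had 31919, while *apoa2* had 28669. These 3 genes alone made up 60.3% of the counts of the lipid genes and 1.16% of those of all genes.

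The scaffold proteins of chylomicrons and very low density lipoprotein came from 3 apolipoprotein B genes with very unequal counts. *apobb.1* had 11424 counts, *apoba* 672 and *apobb.2* 73.9. Nearly all apolipoprotein B fragments were thus assigned to *apobb.1*. *mttp*, whose product loads lipid onto apolipoprotein B, had 432 counts.

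Both apolipoprotein E genes, whose products are ligands of lipoprotein receptors, stood in the top 10% of genes by count. *apoeb* had 7244 counts and *apoea* 4119. In zebrafish *apoeb* is made in the yolk syncytial layer and is also used as a marker of microglia, so its whole-larva count mixes sources. *apoc2*, whose product activates lipoprotein lipase, had 2793 counts, and *apoc1*, whose product slows the clearance of lipoproteins, had 5500.

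The apolipoprotein A-IV genes spread widely. *apoa4b.1* had 4931 counts, the rows under the symbol *apoa4b.2* had 2121 (ENSDARG00000020866) and 926 (ENSDARG00000094929), and *apoa4a* had 27.3. Tandem copies of this kind can share reads, so how their fragments were split is uncertain. *apom*, which carries sphingosine-1-phosphate on high density lipoprotein, had 2284 counts. *apool*, *apoob* and *apooa* had 241, 187 and 134 counts. Despite their names, their mammalian counterparts are parts of a mitochondrial inner membrane complex and not carriers of lipid in plasma.

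**Figure D2:**
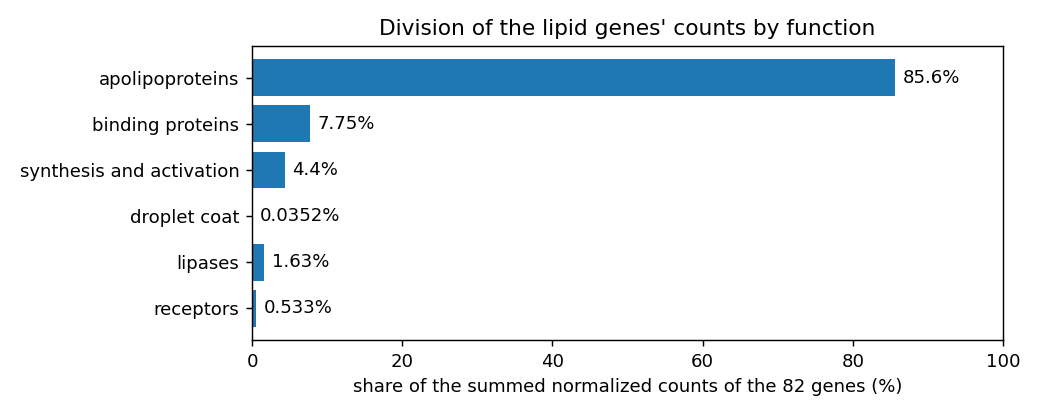
Share of the summed normalized counts of the 82 lipid genes (horizontal axis, %) taken by each function, 1 bar per function. Apolipoproteins held 85.6%, binding proteins 7.75% and the other 4 functions less than that each.

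Fatty acid binding proteins came next, with 12 genes, a median of 655 counts and 7.75% of the counts of the lipid genes. *fabp7a*, the brain type expressed in radial glia, had 4135 counts. *fabp1b.1* and *fabp2*, whose products bind fatty acids in the intestine, had 2212 and 2201 counts. *fabp3*, the heart and muscle type, had 2045, *fabp6*, which binds bile acids in the ileum of mammals, had 929, and *fabp10a*, the liver type of fishes, had 833. *fabp11a* had 476 counts. The remaining genes of the family lay below the median of all genes, with 83.2 counts for *fabp1a*, 70.7 for *fabp11b*, 30.2 for *fabp7b*, 16.7 for *fabp10b* and 13.5 for *fabp1b.2*. The family was thus split into 7 genes above the overall median and 5 below it.

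Enzymes of synthesis and activation were more even. These 29 genes, *mttp* included, ran from 10.6 to 820 counts with a median of 162, and together held 4.40% of the counts of the lipid genes. *elovl1b*, an elongase of very long chain fatty acids, had 820 counts. *acsl4b*, which belongs to the long chain acyl-CoA synthetases that activate fatty acids, had 790. *scdb*, a stearoyl-CoA desaturase that makes monounsaturated fatty acids, had 534.

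Low counts were found for 3 genes of long chain polyunsaturated fatty acid synthesis. *fads2*, the desaturase, had 25.8 counts, *elovl2* had 25.5 and *elovl5* had 49.0. All 3 lay in the lower part of the table, below the median of all genes. The elongase genes *elovl4a* and *elovl4b* had 135 and 183 counts, above that median. The lowest gene of synthesis and activation was *elovl8a*, at 10.6. The triacylglycerol enzymes *dgat1a* and *dgat1b* had 143 and 146 counts, *dgat2* had 79.8, and the 3 monoacylglycerol acyltransferases (*mogat2*, *mogat3a*, *mogat3b*) ran from 119 to 162.

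The perilipins had the fewest counts of any function. *plin2*, found on droplets in most cells, had 32.5 counts. *plin6*, known from pigment cells of fishes, had 16.5, and *plin1*, the fat cell type, had 10.3. All 3 were below 50 counts, and together they held 0.0352% of the counts of the lipid genes.

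Of the 13 lipases, 7 lay above the median of all genes and 4 had fewer than 50 counts, as did 5188 of all 19143 genes. *lpl*, the lipoprotein lipase that frees fatty acids at vessel walls, had 697 counts. *lipf*, whose human counterpart is gastric lipase, had 491, and *pnpla7a*, of the patatin-like phospholipases, had 475. *pnpla2*, which encodes adipose triglyceride lipase and starts the breakdown of droplets, had 61.9 counts. Both hormone-sensitive lipase genes were lower in count, with 29.8 for *lipeb* and 24.0 for *lipea*, and *lipca*, a hepatic lipase gene, was the lowest at 11.2.

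The receptor group held 7 genes from 29.2 to 283 counts, taken by symbol and including adaptors and genes named for a receptor domain. *ldlra* and *ldlrb*, genes of the receptor that clears low density lipoprotein from plasma, had 283 and 177 counts. *ldlrad4a*, which shares a receptor domain but is known in mammals from signalling, had 152. *ldlrap1b*, an adaptor of receptor uptake, was the lowest at 29.2.

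Many zebrafish genes survive as pairs of copies, and 22 pairs among the lipid genes differ in symbol only by a final a or b or by a tandem number. *apoa4b.1* and *apoa4b.2* were not counted as a pair, since *apoa4b.2* stands on 2 rows. In 13 of the 22 the counts differed by more than 2-fold, and in 4 by more than 10-fold. Of these 4, 3 were binding proteins and the other was the apolipoprotein B pair. *fabp1b.1* had 164 times the counts of *fabp1b.2*, *apobb.1* had 155 times those of *apobb.2*, *fabp7a* had 137 times those of *fabp7b*, and *fabp10a* had 49.8 times those of *fabp10b*. The next was *acsl3b*, with 9.98 times the counts of *acsl3a*. At the even end were *dgat1b* with 1.03 times the counts of *dgat1a*, *lipeb* with 1.24 times those of *lipea*, and *apoa1b* with 1.28 times those of *apoa1a*. Transcript lengths of the copies and the sharing of reads between them were not analysed, so the ratios are of fragments and not of transcripts. In the 3 binding protein pairs over 10-fold apart the lower copy had 30.2 counts or fewer, so these ratios are uncertain. The same holds for pairs less far apart whose lower copy was *elovl8a* (10.6 counts), *lipca* (11.2), *lipea* (24.0) or *ldlrap1b* (29.2). In the pair of *lipea* and *lipeb*, named above as even, both copies had few counts, 24.0 and 29.8. Pairs of other genes were not counted, so whether lipid genes differ from them was not tested.

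**Figure D3:**
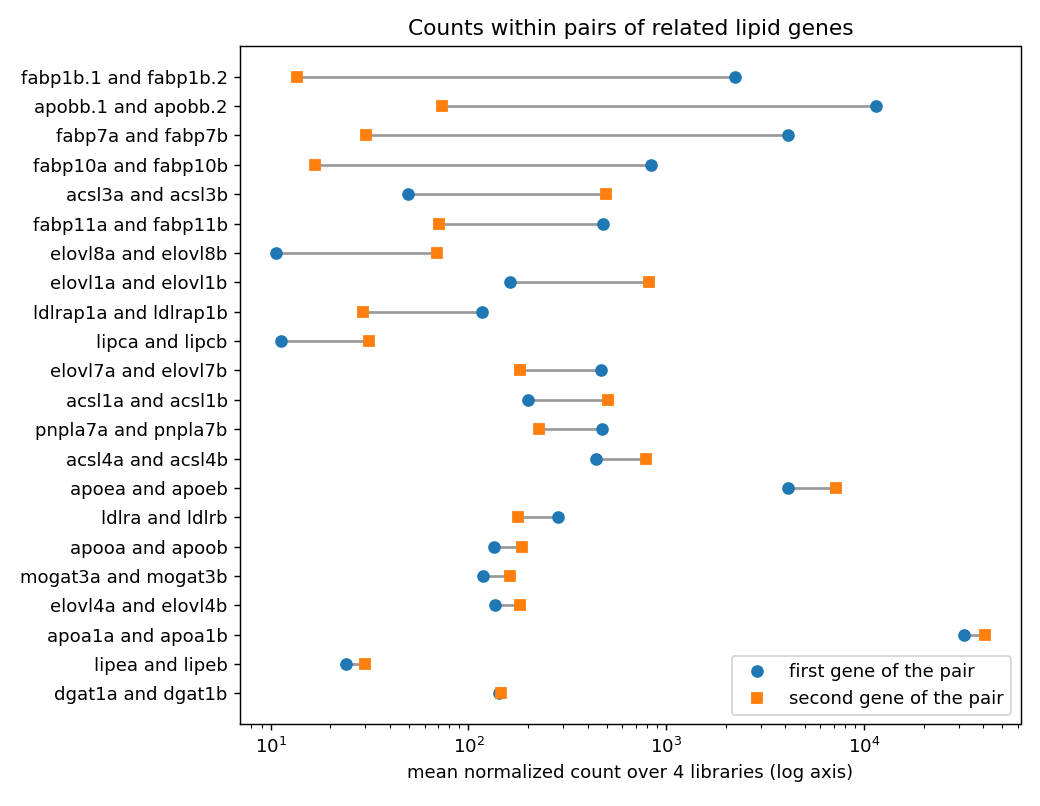
Mean normalized counts of both genes of 22 pairs (horizontal log axis), with 1 row per pair, circles for the gene named first and squares for the gene named second. The pairs run from 164-fold apart (fabp1b.1 and fabp1b.2) at the top to 1.03-fold apart (dgat1a and dgat1b) at the bottom.

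Some members also neighbour each other in the genome. By gene order in the GRCz12tu annotation, which placed 77 of the 81 symbols on 23 chromosomes, there were 4 runs of members with at most 1 other protein-coding gene between them. Symbols that were not placed could not enter a run, so runs may be incomplete. The longest run held 5 symbols, *apoa4b.2*, *apoeb*, *apoc1*, *apoa2* and *apoc2*. Together they held 28.1% of the counts of the lipid genes, and each had 2793 counts or more, with both rows of *apoa4b.2* added. *apoa4a* and *apoea* formed another run, with 27.3 and 4119 counts. In *fabp1b.1* with *fabp1b.2* and in *dgat2* with *mogat2*, the neighbours had 2212 and 13.5 counts and 79.8 and 156 counts. Neighbours in a run could thus differ more than 100-fold in count.

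Other genes of lipid metabolism, from lists chosen by function with earlier results of these data known, set these counts in context. All 14 fatty acid oxidation genes had a row, with a median of 672 counts, and 13 of them lay above the median of all genes. They ran from *acox3*, a peroxisomal oxidase, at 120 counts to *acadvl*, the very long chain acyl-CoA dehydrogenase, at 1594. The other lists were found in part, with a row for 16 of 18 genes of lipoprotein remodelling and export, 6 of 7 uptake genes, 11 of 12 regulators and 3 of 5 genes of new fatty acid synthesis. Of the 16 genes of remodelling and export 10 lay above that median, from the sterol transporter *abcg8* at 9.63 counts to the cholesterol exporter *abca1a* at 1255. Of the 6 uptake genes 4 did so, from *slc27a6* at 35.3 to *slc27a2a* at 658. Among the 11 regulators 3 lay above it, from *pparab*, a fatty acid sensing nuclear receptor, at 11.5 to *srebf2*, which drives sterol synthesis, at 560. *creb3l3l*, a transcription factor gene with 1087 counts, stood on the list of remodelling and export, while its relatives *creb3l3a* and *creb3l3b*, with 26.5 and 75.4 counts, stood among the regulators. Of the 3 genes of new fatty acid synthesis 2 lay above that median, from *me1* at 64.5 to *acaca*, the acetyl-CoA carboxylase, at 321. *acly* and *fasn*, also on this list, had no row under these symbols, and why they had none was not tested. The symbol *ppara* among the regulators had no row either, while *pparaa* and *pparab* on the same list had 54.6 and 11.5 counts.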

How the data were processed

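The authors sequenced polyadenylated RNA of 4 pools of larvae with paired ends. The authors trimmed reads with Trimmomatic and aligned them with HISAT2. Per the labels, the genome build was GRCz10, fragments were counted with featureCounts of Subread 1.5.2, and DESeq2 was run in R 3.3.1. The annotation release is not given in the sources used here. The authors' deposited signal is the mean over 4 libraries of counts divided by size factors, and is the column used. The deposited tables also hold the authors' own comparison of the genotypes (log2 fold change, standard error, statistic, p-value and adjusted p-value), and a second table holds genes selected by it. These columns were not used, so no genotypes were compared.

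Members were matched by symbol, and shares, medians and percentiles were computed from the signal and tested on simulated data. Members and lists were chosen with earlier results of these data known. Levels per coding length had been planned, but lengths were not used here, so counts as deposited stand in their place, also in the rule for named genes. That rule took every apolipoprotein and binding protein, the 3 highest and the lowest gene of each other function, pairs over 10-fold apart, and the highest and lowest of each other list. Further genes were named after their values were seen. The GRCz12tu annotation served for the order of genes only. Other settings tried were a minimum of 50 counts, 1 row per symbol and leaving out the genes with the most counts. Python 3.11.15, numpy 2.4.6, pandas 2.3.3 and matplotlib 3.10.9 were used.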

Additional observations from a re-analysis of the deposited data

How the results depend on the processing

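Without the 100 genes with the most counts, the lipid genes took 0.875% of the remaining counts, in place of 1.93%. With 1 row per symbol their median was 177 counts, and among genes with at least 50 counts it was 369, over 64 of the 82 genes, against 204 for all genes kept. Without *apoa1b*, *apoa1a* and *apoa2*, a setting chosen after seeing the data, apolipoproteins held 63.9% of the counts of the remaining lipid genes. With the minimum of 50 counts, 15 of the 64 lipid genes kept stood in the top 10% of the genes kept, in place of 20 of 82. Counts per coding length, pairs without near-identical copies and leaving out a library were planned and not run. No paired analysis was possible because only means over all 4 libraries were used. The precision of single counts is unknown for the same reason, and genes with few counts are the least certain.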
